A study of Arabidopsis thaliana with 12 samples.

Results

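The transcriptomes of Arabidopsis seedlings exposed to the bacterial peptide flg22 alone and to hypoxia alone were compared directly, to find the genes and pathways that set these individual stresses apart. The comparison takes 6 of the 12 samples of the series. All samples were whole seedlings of wild type Col-0, 10 days old, sampled after 1 h of treatment in liquid medium under continuous light. The 3 normoxia/flg22 samples (NF) received 100 nM flg22 at ambient oxygen. The 3 hypoxia/mock samples (HM) received the same volume of water in anaerojars. The 3 normoxia/mock (NM) and 3 hypoxia/flg22 (HF) samples served as references. Each sample was a pool of 5 seedlings. NF and HM differ in oxygen and in flg22 at once, so a gene higher in NF can have risen with flg22 or fallen in hypoxia. The values relative to NM are given for that reason, and every comparison with NM shares its NM samples with the others. In bulk RNA of whole seedlings, fewer cells of a type and less RNA per cell cannot be told apart.

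Hypoxia is perceived in plants through the group VII ETHYLENE RESPONSE FACTORs (ERF-VIIs). In air, plant cysteine oxidases (PCOs) oxidize the N-terminal cysteine of these transcription factors, which marks them for the Arg/N-degron pathway. When oxygen is short, the factors are stable and activate genes of ethanol fermentation, sucrose breakdown and oxygen sensing itself. The peptide flg22 is bound by the receptor kinase FLS2 together with the co-receptor BAK1. This starts pattern-triggered immunity (PTI), in which receptor-like cytoplasmic kinases, a burst of reactive oxygen species and mitogen-activated protein kinase (MAPK) cascades precede a broad transcriptional response that relies largely on WRKY factors. These bind the W-box, whereas ERF-VIIs bind an element known as the hypoxia-responsive promoter element (HRPE).

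The total read count per sample was between 21307648 and 21554051, so depth was nearly equal in all samples. Root and leaf marker genes were both present in all samples: none of the 8 root markers and none of the 8 shoot markers was at 0 anywhere. Deviations from the group means were shared within replicate numbers (r between NF and HM of 0.48, 0.34 and 0.34 over all tested genes), and the replicate number was a block in the fit. For HF replicate 3 this did not hold, with r of -0.01, -0.05 and -0.11 to replicate 3 of NM, HM and NF, and no source used here says whether the numbers mark shared batches. A fit with the block but without the HF samples called 2165 genes higher in NF and 1278 in HM. Among the HM samples, genes of the flg22 response were highest in replicate 1. Over 19 early flg22 marker genes, the mean change from NM on the log2 CPM scale was 1.93 in HM replicate 1, against -0.16 and 1.20 in the other HM samples and 2.95, 4.01 and 4.27 in NF. Hypoxia genes were highest in HM replicate 1 as well. The same measure over other core hypoxia genes was 2.93, 1.36 and 2.33 in HM replicates 1, 2 and 3. Heat shock and energy starvation genes were highest in HM replicate 2. Leaving out HM replicate 2, HM replicate 3 or NF replicate 2 lowered the counts of many lists, and these values stand beside the lists.

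Of 20074 genes tested, 1967 (9.8%) were differentially expressed genes (DEGs) with higher expression in NF and 1105 (5.5%) were DEGs with higher expression in HM. DEGs had to differ by more than 1.5-fold and to stay under 0.05 after Benjamini-Hochberg adjustment of the p-values of edgeR's quasi-likelihood test, which was fitted on all 12 samples. The differences on the NF side were the larger ones. Their median log2 fold change (log2FC) was 1.62, and 351 genes exceeded 3 on the log2 scale. On the HM side, the median log2FC was -0.90, and 39 genes were more than 3 below on the log2 scale. NF and HM values did not overlap for 1604 of the genes higher in NF and for 686 of those higher in HM. Among all 20074 tested genes, NF lay wholly above HM for 2628 and HM wholly above NF for 2214. The same values chose the DEGs, so the overlap counts are a description. Over all tested genes, the median log2FC was 0.003. For 13 genes higher in NF, no HM sample had any count, against 17 among all tested genes. Such genes passed the count filter only through samples of other groups, so these counts depend on the filter and are a description.

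For most DEGs of either direction, NF lay farther from NM than HM did. Among the 1967 genes higher in NF, the median log2FC to NM was 1.55 in NF and 0.06 in HM. Of these genes, 1592 (80.9%) were farther from NM in NF than in HM, and 873 lay above NM in NF and below it in HM. Among the 1105 genes higher in HM, the median log2FC to NM was -0.59 in NF and 0.31 in HM, and 797 (72.1%) were farther from NM in NF. For 936 of these 1105 genes, expression lay above NM in HM and below it in NF. Since NF and HM values also chose the genes, these counts are a description. The same shares over all tested genes were not computed. Across all tested genes, NF vs NM gave 1823 DEGs with higher (9.08%) and 492 with lower (2.45%) expression in NF, and HM vs NM gave 13 DEGs (0.0648%). With DESeq2 at the same cutoffs, the study reported more DEGs for hypoxia alone. Large rises in HM could miss the cutoff here, as for SUS4 (log2FC to NM 4.14, edgeR adjusted p = 0.129) and ADH1 (3.31, 0.129), while PDC1 passed (6.39, 0.0434). The count of 13 thus does not measure how many genes responded to hypoxia.

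**Figure D1:**
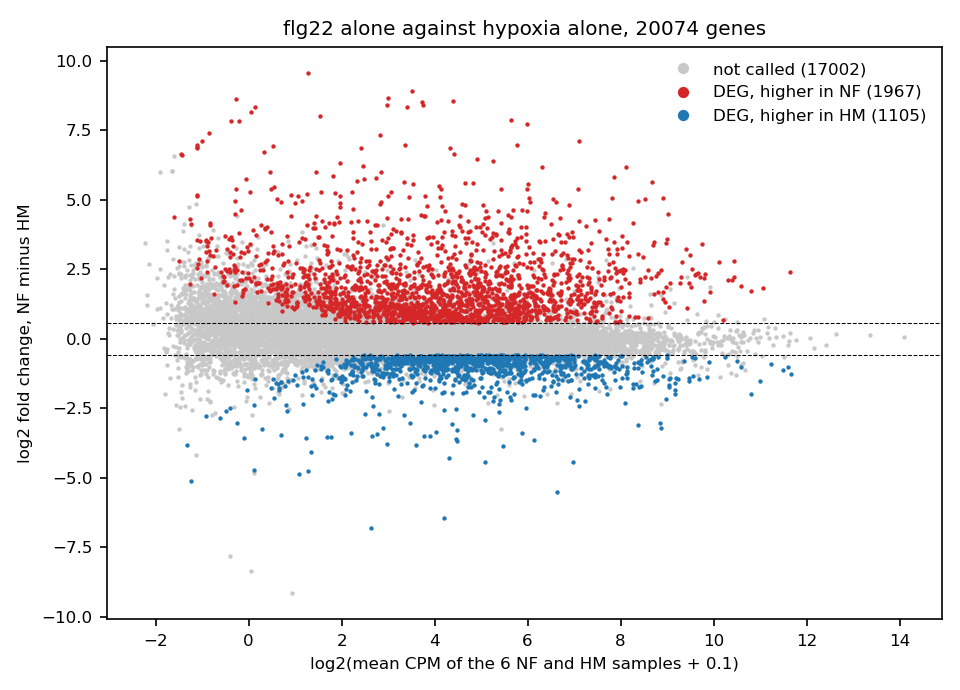
Log2 fold change (NF minus HM) of each tested gene against its mean level in the 6 NF and HM samples (log2 of mean CPM plus 0.1). Red points are the 1967 DEGs higher in NF and blue points the 1105 DEGs higher in HM, and the dashed lines mark the 1.5-fold cutoff. The red points reach farther from 0 than the blue ones.

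The size of these counts depended on the fit. Without the replicate block, 835 and 196 genes were called higher in NF and HM, and all 1031 were also called with it. With the NF and HM samples alone, 34 and 14 genes passed, although 6240 genes had an unadjusted p under 0.05. Leaving out HM replicate 3 left 432 and 179 calls and leaving out NF replicate 2 left 549 and 171, whereas without HM replicate 1 there were 2028 and 1121. No gene was called in opposite directions in any of the 23 alternatives, which reused the same samples and are no independent check of direction.

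The comparison of HF with NM includes no NF or HM sample, although all were fitted together. In HF vs NM, 2211 genes (11.0%) were higher and 1151 (5.73%) were lower in HF. Of the genes higher in NF than in HM, 1192 (60.6%) were also higher in HF and 32 were lower. Of the genes higher in HM than in NF, 64 were higher and 167 (15.1%) were lower in HF. The latter count was 70 without the block, and the doubt about HF replicate 3 applies to all HF comparisons.

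To show the control regions of genes that led each side, the 250 bases before their annotated start are given below, in RefSeq annotation of TAIR10.1, read 5′ to 3′ on the strand of the gene. The genes are the 2 with the largest log2FC in each direction by the rule stated under the processing. Capitals mark matches of the W-box motifs (TTGACC or, read on the other strand, GGTCAA, and likewise TTGACT or its reverse complement AGTCAA) and of the core of the HRPE (AAACCA, which on the other strand reads TGGTTT). The window of PDC1 is chr4:15954804-15955053 (minus strand), that of HRA1 chr3:3098418-3098667 (minus strand), that of CYP82C3 chr4:15454833-15455082 (plus strand) and that of WRKY30 chr5:8154711-8154960 (minus strand).
PDC1: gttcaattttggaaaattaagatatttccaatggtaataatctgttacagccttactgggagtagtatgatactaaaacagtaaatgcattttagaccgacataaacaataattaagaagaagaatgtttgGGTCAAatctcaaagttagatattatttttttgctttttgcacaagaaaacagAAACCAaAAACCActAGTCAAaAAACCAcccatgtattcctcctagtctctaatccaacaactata
HRA1: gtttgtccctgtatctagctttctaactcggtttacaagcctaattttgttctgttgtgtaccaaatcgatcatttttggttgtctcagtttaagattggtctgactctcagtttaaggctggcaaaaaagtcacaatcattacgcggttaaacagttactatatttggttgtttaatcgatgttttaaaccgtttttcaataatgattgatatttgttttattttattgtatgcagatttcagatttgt
CYP82C3: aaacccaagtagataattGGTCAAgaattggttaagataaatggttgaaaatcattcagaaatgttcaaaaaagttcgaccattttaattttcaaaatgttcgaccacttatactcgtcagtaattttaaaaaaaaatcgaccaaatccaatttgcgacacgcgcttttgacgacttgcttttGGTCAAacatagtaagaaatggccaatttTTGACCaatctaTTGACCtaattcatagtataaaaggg
WRKY30: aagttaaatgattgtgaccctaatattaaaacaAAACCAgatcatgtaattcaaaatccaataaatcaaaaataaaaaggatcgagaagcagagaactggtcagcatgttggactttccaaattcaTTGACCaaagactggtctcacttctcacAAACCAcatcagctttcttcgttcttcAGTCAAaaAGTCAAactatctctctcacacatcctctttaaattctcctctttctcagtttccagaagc
CYP82C3 had 4 W-box matches and no AAACCA in this window, and WRKY30 had 3 and 2. PDC1 had 2 W-box matches and 3 AAACCA, which stand close together near the gene, and HRA1 had none of either.

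Over windows of 300 bases (250 before and 50 after the start), 52.2% of the 1967 genes higher in NF had a W-box match of either kind, compared with 33.2% of the promoters of 20073 tested genes and 27.0% of the 1105 genes higher in HM. TTGACC was present in 23.9% of the genes higher in NF, 11.1% of those higher in HM and 14.6% of all promoters. TTGACT was present in 37.8%, 17.9% and 22.4%, respectively. AAACCA was about equally frequent in the 3 sets, at 31.5%, 33.3% and 32.3%. These are matches of letters and were given no test. As AAACCA is only the core of the HRPE, its shares do not count whole HRPEs.

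**Figure D2:**
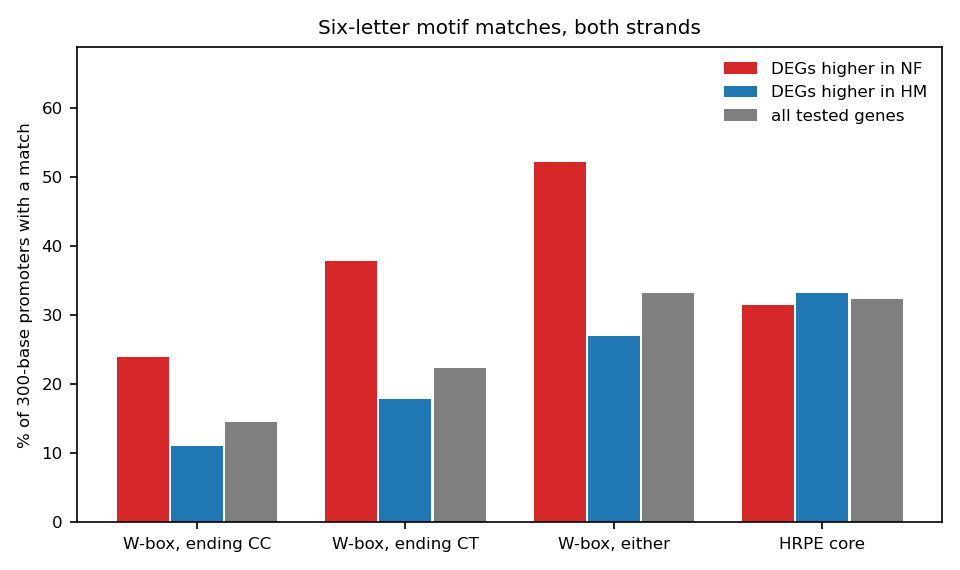
Percentage of promoters (300 bases) with at least 1 match on either strand of the W-box ending in CC, the W-box ending in CT, either W-box, or the HRPE core, for DEGs higher in NF (red), DEGs higher in HM (blue) and all tested genes (grey). The bars for either W-box stand at 52.2%, 27.0% and 33.2%, and those for the HRPE core lie between 31.5% and 33.3%.

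On the hypoxia side, genes of ethanol fermentation are described first. PDC1, pyruvate decarboxylase, which commits pyruvate to ethanol, had 392, 36.0 and 158 CPM (read counts scaled by the effective library size) in HM replicates 1, 2 and 3 and 7.82, 2.32 and 2.17 CPM in NF. The groups did not overlap, and NM was as low as NF, with 5.55, 0.743 and 1.08 CPM. The log2FC was -5.52 (SE 0.82, adjusted p = 0.00559). ADH1, alcohol dehydrogenase, which completes the pathway, had 177, 35.1 and 107 CPM in HM and 7.49, 12.4 and 11.2 CPM in NF (log2FC -3.38, SE 0.71, adjusted p = 0.0154). For both genes HM replicate 2 was the lowest HM sample but stayed above all NF samples. SUS4, a sucrose synthase that feeds sugar into glycolysis, had 102, 7.28 and 15.1 CPM in HM and 6.34, 2.17 and 1.77 CPM in NF (log2FC -3.26, SE 0.84, adjusted p = 0.029). Its call was lost without the block (adjusted p = 0.11).

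Not all of the fermentation list separated the stresses. Of its 10 genes, 3 (30.0%) were higher in HM and 1 (10.0%) in NF, against 5.5% and 9.8% of all tested genes. The median log2FC was -1.05, with medians of -1.39, -0.31 and -0.97 in the 3 same-numbered pairs. PDC2 (log2FC -1.08, adjusted p = 0.0536), SUS1 (-1.39, 0.0918) and ALAAT1, alanine aminotransferase (0.37, 0.398), did not pass the test. The exception in the opposite direction was GAD4, a glutamate decarboxylase that makes γ-aminobutyrate. It had 15.1, 0.753 and 3.33 CPM in HM and 141, 197 and 204 CPM in NF (log2FC 5.03, SE 0.84, adjusted p = 0.00731). In HF, which had both stresses, GAD4 stood at 134, 216 and 239 CPM and PDC1 at 438, 774 and 244 CPM, so each was high wherever its own stress was applied.

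Oxygen sensing genes were higher in HM where they were called at all: 7 of 14 were higher in HM and none in NF (median log2FC -0.68). HRA1, a trihelix factor that restrains the ERF-VII RAP2.12, had 427, 87.5 and 204 CPM in HM and 17.5, 20.1 and 1.18 CPM in NF (log2FC -4.43, SE 0.83, adjusted p = 0.0101). The oxygen sensors PCO1 and PCO2 were both higher in HM. PCO2 had 41.6, 13.9 and 25.7 CPM in HM and 2.39, 4.64 and 1.13 CPM in NF (log2FC -3.49, SE 0.52, adjusted p = 0.00579), and for PCO1 the log2FC was -2.54 (SE 0.46, adjusted p = 0.0094). The remaining sensors PCO3, PCO4 and PCO5 had log2FC values of -0.20, -0.18 and -0.57 and were not called. Among the ERF-VIIs, HRE1 had 86.2, 50.5 and 82.9 CPM in HM and 12.8, 24.6 and 22.8 CPM in NF (log2FC -1.92, SE 0.31, adjusted p = 0.00656). RAP2.2 and RAP2.3, which are made in air as well, were also higher in HM, by smaller margins (log2FC -0.71 and -1.18). For RAP2.2, NM lay between the groups, with 129, 181 and 178 CPM against 170, 231 and 237 in HM and 100, 150 and 141 in NF. RAP2.12 (log2FC -0.37, adjusted p = 0.0934) and HRE2 (-1.74, 0.243) did not pass the test. HRE2 was detected at only 6.35, 0.351 and 0.810 CPM in HM.

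Of 36 other core hypoxia genes tested, 20 (55.6%) were higher in HM and 1 (2.8%) in NF, against 5.5% and 9.8% of all tested genes. The median log2FC was -1.68, with -2.30, -0.85 and -1.79 in the pairs. The gene higher in NF was not called without HM replicate 2, HM replicate 3, NF replicate 2, NF replicate 3 or NM replicate 2. In relation to NM, the medians were 1.74 in HM, 0.13 in NF and 2.71 in HF. LBD41, a LOB-domain transcription factor, had 751, 306 and 690 CPM in HM and 37.9, 155 and 52.7 CPM in NF (log2FC -3.10, SE 0.57, adjusted p = 0.00951). It did not overlap between the groups, although NF replicate 2 reached 155 CPM with NM at 21.6, 20.8 and 12.7. NIP2;1, a water and lactic acid channel, had 82.8, 3.26 and 22.6 CPM in HM and 0.782, 0.412 and 0 CPM in NF (log2FC -6.45, SE 1.21, adjusted p = 0.0106). The uncharacterized gene AT1G33055 was nearly equal in the 3 HM samples, with 64.7, 65.3 and 59.6 CPM in HM and 2.02, 8.40 and 1.82 CPM in NF (log2FC -4.42, SE 0.45, adjusted p = 0.00154). AT4G10270 and AT4G33560, both of the wound-responsive family, had log2FC values of -4.29 and -3.68. ETR2, an ethylene receptor, had 69.4, 37.1 and 40.9 CPM in HM and 14.9, 20.9 and 10.0 CPM in NF (log2FC -1.73, adjusted p = 0.0106).

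Several genes that are widely used as hypoxia markers did not separate the stresses at these cutoffs. HB1, hemoglobin 1, which scavenges nitric oxide, had 71.3, 9.84 and 25.2 CPM in HM and 15.4, 16.0 and 5.86 CPM in NF (log2FC -1.43, SE 0.56, adjusted p = 0.0984). In the alternatives, HB1 was called higher in HM with DESeq2 on all samples with the block and without HM replicate 2. Each NF value exceeded that of NM with the same number (8.22, 3.39 and 3.10 CPM), while NF overlapped both NM and HM. CML38, a calmodulin-like protein, overlapped as well, with 99.2, 10.3 and 37.2 CPM in HM and 12.3, 13.8 and 35.2 CPM in NF (log2FC -1.11, adjusted p = 0.294). AT4G24110 had a log2FC of -0.46 (adjusted p = 0.653). The gene called in the opposite direction was AT5G27760, a hypoxia-responsive family protein, with 100, 40.5 and 56.9 CPM in HM and 116, 302 and 232 CPM in NF (log2FC 1.61, SE 0.44, adjusted p = 0.0341). NM reached at most 44.2 CPM. Over a longer published list of genes that rise after 2 h of hypoxia, used by the study, calls went both ways: of 425 members tested, 111 (26.1%) were higher in NF and 75 (17.65%) in HM, against 9.8% and 5.5% of all genes. The median log2FC was 0.26, with -0.37, 0.65 and 0.45 in the pairs. Relative to NM, the medians of that list were 0.87 in NF and 0.92 in HM.

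The counts of the hypoxia lists rested in part on HM replicate 3 and NF replicate 2. Without the former, the calls higher in HM were 1 for fermentation, 4 for oxygen sensing and 6 for the other core genes. Without NF replicate 2 there was 1 for fermentation and 7 for the other core genes, without HF replicate 2 there were 5 for fermentation, and without the block they were 2, 4 and 14. Of the genes named, PDC1, HRA1, AT1G33055, PCO2 and HRE1 kept their call in 22 of 23 alternatives, all but the fit of NF and HM samples alone.

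Outside the lists, the DEGs with the largest excess in HM included more transcription factors. DREB26, an AP2/ERF factor, had 112, 44.3 and 94.6 CPM in HM and 5.22, 5.41 and 6.20 CPM in NF (log2FC -3.85, SE 0.32, adjusted p = 0.000805). NM was in between at 17.3, 14.0 and 12.3 CPM, so that all HM samples were above it and all NF samples below it. AT1G77640, another AP2/ERF protein, had a log2FC of -3.78, and AT3G19680, a protein of unknown function, one of -3.64. AT4G13540, annotated as a golgin family protein, showed a different course: with 1.47, 17.3 and 8.58 CPM in NM and 4.59, 19.4 and 9.81 in HM, it differed mainly by its low values in NF (0.165, 1.55 and 1.48 CPM, log2FC -3.51, adjusted p = 0.00354). It was not called without the block (adjusted p = 0.0667).

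**Figure D3:**
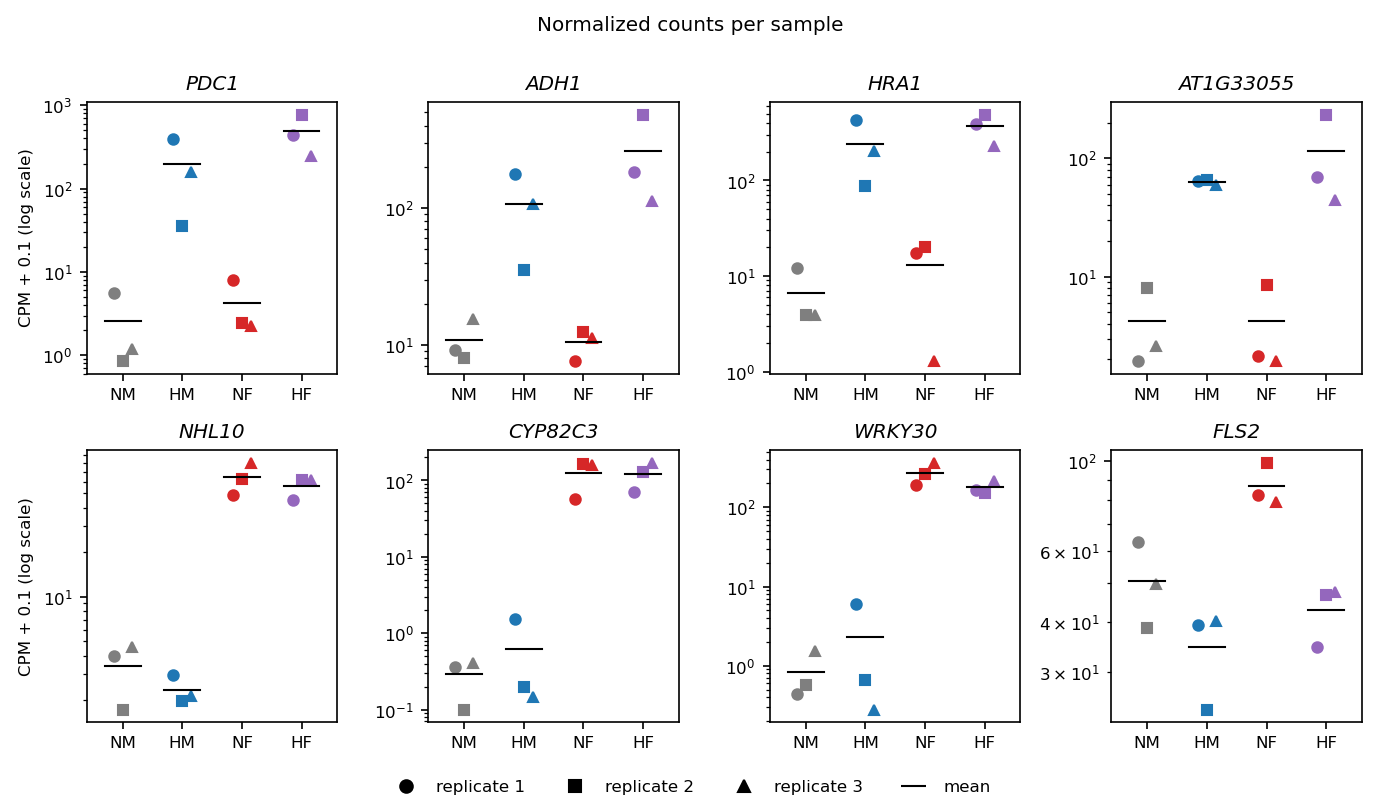
Normalized counts (CPM plus 0.1, log scale) of 8 genes in each of the 12 samples, with replicates 1, 2 and 3 as circles, squares and triangles and a line at the mean of 3 samples. The upper genes are higher in all HM and HF samples than in NM and NF, and the lower genes are higher in all NF samples than in HM; FLS2 is at 82.5, 99.0 and 79.3 CPM in NF and lower in HF.

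Genes known to respond to energy starvation formed a further group on the HM side. Of 13 genes, 6 were higher in HM and none in NF (median log2FC -0.96), and relative to NM the median was -0.76 in NF and 0.24 in HM. DIN10, a raffinose synthase family protein induced in the dark, had 3195, 6529 and 3816 CPM in HM and 924, 2952 and 2002 CPM in NF (log2FC -1.27, SE 0.31, adjusted p = 0.0235). NM lay between them, at 1546, 5051 and 3250 CPM. TPS10, a class II trehalose phosphate synthase, had 149, 338 and 233 CPM in HM and 61.3, 111 and 116 CPM in NF (log2FC -1.29, adjusted p = 0.0138). AKINBETA1, a subunit of the SnRK1 energy kinase, had a log2FC of -1.02. In both groups, replicate 1 was the lowest sample for these 3 genes, and none of the 6 was called without the block. None was called without HM replicate 2, HM replicate 3 or NF replicate 2 either, 2 were without NF replicate 1 and 10 without HF replicate 1.

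Glycolysis, in contrast, hardly separated NF and HM. Its 15 genes had a median log2FC of 0.07, and 2 were higher in HM: the aldolase FBA6 (log2FC -1.02, adjusted p = 0.0389) and the phosphofructokinase PFK2 (-0.88, 0.0212). Neither was called without the block, HM replicate 3, NF replicate 1 or NF replicate 2, and 1 gene was without HM replicate 1, HM replicate 2, NF replicate 3 or NM replicate 1. Of 11 genes of alternative respiration and mitochondrial stress, 2 were higher in NF, namely OM66 (log2FC 3.04, adjusted p = 0.00818) and NDA2, an alternative NADH dehydrogenase (0.96, 0.0192). OM66 was not called without the block (adjusted p = 0.125). The list had 5 calls higher in NF without HM replicate 1, none without HM replicate 3 and 1 without HM replicate 2, NF replicate 2 or NF replicate 3, and 1 gene was called higher in HM when any HF sample was left out.

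Heat shock genes had a low median (log2FC -1.37) but few calls, and their values in HM were uneven. The shares called, 5.3% higher in HM and 5.3% in NF, were no larger than the 5.5% and 9.8% of all tested genes. Of 19 tested, 1 was higher in HM (HSP17.6II, a small chaperone, at 2.15, 1.91 and 0.720 CPM in HM and 0.0823, 0.722 and 0.344 CPM in NF, adjusted p = 0.0485) and 1 in NF (HSFA4A, a heat shock factor, log2FC 2.05, adjusted p = 0.0119). For HSP17.6II, NF and HM overlapped narrowly, and its call held in 4 of 23 alternatives and in none of the 12 that left out a sample. The call of HSFA4A was lost without HM replicate 3 or NF replicate 2. The summed level of the list was 212, 827 and 158 CPM in HM, 152, 230 and 261 CPM in NF and 97.5, 112 and 113 CPM in NM. HM replicate 2 held most of the excess, and HF replicate 2 was likewise the highest HF sample, with 1536 CPM against 261 and 256. HSP70-4, chosen after its values were seen, had 31.1, 286 and 13.9 CPM in HM and 8.23, 11.9 and 11.8 CPM in NF (log2FC -2.05, adjusted p = 0.181). The list median was -1.06 without HM replicate 2 and -0.59 without NF replicate 2, and between -2.06 and -0.59 over all samples left out.

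On the flg22 side, WRKY30 and CYP82C3 had the largest differences by the naming rule and were low in HM. WRKY30 had 5.92, 0.552 and 0.180 CPM in HM and 190, 264 and 365 CPM in NF (log2FC 7.11, SE 1.02, adjusted p = 0.00508). CYP82C3, a cytochrome P450 of the CYP82C group, had 1.42, 0.100 and 0.0450 CPM in HM and 57.8, 165 and 158 CPM in NF (log2FC 7.73, SE 0.93, adjusted p = 0.00273). For both genes HM replicate 1 was the highest HM sample, and all NF samples were far above it. HF reached 166, 151 and 217 CPM for WRKY30 and 70.1, 127 and 171 CPM for CYP82C3. Further genes with a large excess in NF were AT5G56960, a bHLH factor (log2FC 6.41), AT3G01830, an EF-hand calcium-binding protein (6.46), and AT1G07160, a protein phosphatase 2C (6.17).

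Early flg22 marker genes separated the stresses with a median log2FC of 2.43, and 12 of 19 were higher in NF and none in HM. NHL10, a commonly used flg22 marker, was the most stable gene of all those named: it had 2.88, 1.86 and 2.02 CPM in HM and 48.4, 62.8 and 80.4 CPM in NF (log2FC 4.80, SE 0.35, adjusted p = 0.000456), and it alone kept its call in all 23 alternatives. MLO6, a membrane protein of the powdery mildew susceptibility family, had 14.6, 3.67 and 3.64 CPM in HM and 114, 280 and 394 CPM in NF (log2FC 5.38, SE 0.75, adjusted p = 0.00476). PER4, a peroxidase, had 20.7, 0.653 and 10.3 CPM in HM and 223, 486 and 654 CPM in NF (log2FC 5.81, adjusted p = 0.0124). The U-box ubiquitin ligases PUB22, PUB23 and PUB24, which dampen PTI, were all higher in NF, with log2FC values of 2.39, 3.06 and 3.86. So were the calcium-dependent kinase CPK28 (2.50) and the syntaxins SYP122 (2.43) and PEN1 (2.43), which serve secretion at the plasma membrane.

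WRKY33 and RBOHD, which belong to the best-known PTI genes, did not pass the test, and both were high in HM replicate 1. WRKY33, a regulator of camalexin synthesis, had 647, 60.8 and 165 CPM in HM and 635, 905 and 1735 CPM in NF (log2FC 2.22, SE 0.72, adjusted p = 0.0586). RBOHD, the NADPH oxidase of the oxidative burst, had 793, 60.8 and 125 CPM in HM and 649, 713 and 873 CPM in NF (log2FC 1.79, SE 0.68, adjusted p = 0.0906). In both cases HM replicate 1 was at or above the lowest NF sample, whereas NM stood at 46.1, 26.3 and 60.0 CPM for WRKY33 and 66.9, 28.6 and 55.3 CPM for RBOHD. Without HM replicate 1, both passed, with log2FC values of 3.40 (adjusted p = 0.00114) and 2.98 (adjusted p = 0.000858). As that sample was the highest HM sample for both genes, leaving it out raises their differences. WRKY33 also passed with DESeq2 on all samples with the block, with scaling by library size only and without NF replicate 1. RBOHD passed in no other alternative. Without HM replicate 1 the early flg22 list had 16 calls and a median of 3.20. Without HM replicate 2, HM replicate 3 and NF replicate 2 the list had 6, 4 and 5 calls. FRK1, which is named for its induction by flg22, was uneven in every group, with 0.377, 0.790 and 38.2 CPM in NM, 2.53, 0.351 and 46.4 in HM and 2.26, 19.9 and 65.5 in NF (adjusted p = 0.355).

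Pattern receptors and their partners were higher in NF for 14 of 21 genes and in HM for none (median log2FC 1.60; pairs 0.76, 2.59 and 1.58). FLS2 had 39.2, 24.1 and 40.1 CPM in HM and 82.5, 99.0 and 79.3 CPM in NF (log2FC 1.36, SE 0.24, adjusted p = 0.00852). With NM at 63.0, 38.6 and 49.5 CPM, FLS2 lay above NM in NF and below it in HM in each same-numbered set. Neither difference from NM passed the edgeR test (NF log2FC 0.81, adjusted p = 0.054, and HM -0.55, adjusted p = 0.349). In HF, FLS2 was at 34.6, 46.4 and 47.4 CPM. EFR, the receptor of bacterial EF-Tu, had 8.76, 6.28 and 17.3 CPM in HM and 22.0, 28.5 and 37.6 CPM in NF (log2FC 1.50, adjusted p = 0.00592), and was not called without the block (adjusted p = 0.0916). The list had 12 calls without the block, 7 without HM replicate 3 and 9 without NF replicate 2. The chitin receptor components CERK1, LYK4 and LYK5 had log2FC values of 2.04, 3.30 and 2.60, and PEPR1, the receptor of Pep peptides, one of 2.02. The co-receptors BAK1 (1.23), SERK4 (2.60) and SOBIR1 (2.19) and the cytoplasmic kinase BIK1 (1.43) were higher in NF as well. FER, a receptor of RALF peptides, and DORN1, the ATP receptor, had log2FC values of -0.46 and -0.42 and were no DEGs.

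In the MAPK cascade, 10 of 16 genes (62.5%) were higher in NF and 1 (6.25%) in HM, with a median log2FC of 0.98. Over all tested genes, these shares were 9.8% and 5.5%, so the share higher in HM was near that of all genes. MKK4, which acts above MPK3 and MPK6, had 23.4, 6.12 and 11.3 CPM in HM and 68.2, 54.1 and 76.6 CPM in NF (log2FC 2.39, SE 0.33, adjusted p = 0.00476). MAPKKK5 had 44.9, 36.0 and 33.4 CPM in HM and 100, 267 and 233 CPM in NF (log2FC 2.3, adjusted p = 0.0066). Both held in 22 of 23 alternatives. MPK3 had 509, 104 and 194 CPM in HM and 612, 907 and 1406 CPM in NF (log2FC 1.99, SE 0.50, adjusted p = 0.0255), and its call was lost without the block (adjusted p = 0.0583). MPK6 and MPK4 had log2FC values of -0.04 and 0.37 and were not called. The gene higher in HM was MAPKKK3 (log2FC -0.66, adjusted p = 0.0241). Of this list, 3 genes were called higher in NF without HM replicate 2, HM replicate 3 or NF replicate 2, and 6 without NF replicate 3 or without the block. MAPKKK3 was not called without the block, HM replicate 2, HM replicate 3, NF replicate 1 or NF replicate 2.

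Of 10 precursors of immune peptides, 5 were higher in NF and 1 in HM. PROPEP3, the precursor of a Pep peptide, had 2.40, 0.251 and 0.0900 CPM in HM and 44.1, 126 and 154 CPM in NF (log2FC 6.96, SE 0.95, adjusted p = 0.00438). PROPEP2 (4.17), PREPIP1 (AT4G28460, 7.32) and PREPIP3 (AT2G23270, 5.27) followed, of which both PREPIP genes are annotated as uncharacterized in RefSeq. In HM replicates 1, 2 and 3, PREPIP1 had 5, 0 and 0 counts and PREPIP3 had 9, 0 and 0, so the size of their log2FC is uncertain. RALF23, a peptide that restrains PTI through FER, went the other way, with 45.0, 76.8 and 53.5 CPM in HM and 19.3, 32.0 and 24.7 CPM in NF (log2FC -1.20, SE 0.20, adjusted p = 0.00685). NM was at 34.7, 63.6 and 44.3 CPM, above all same-numbered NF samples. The median of this list was 2.38, but -0.31 when genes needed 10 counts in every sample, a filter that leaves out precursors with few counts in HM.

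Genes of indole glucosinolate, camalexin and related synthesis had the highest median of all lists (log2FC 2.70), with 10 of 15 higher in NF and none in HM. IGMT2, a methyltransferase of indole glucosinolates, had 107, 1.51 and 3.33 CPM in HM and 413, 1055 and 885 CPM in NF (log2FC 5.63, SE 1.52, adjusted p = 0.0334). IGMT2 was not called without the block (adjusted p = 0.0928). Its near-identical neighbours can share reads, so that the split between IGMT1 and IGMT2, like that between CYP71A12 and CYP71A13 and within other large families named here, is uncertain. CYP81F2, which acts before the methyltransferases, had 352, 40.2 and 64.9 CPM in HM and 662, 1629 and 1335 CPM in NF (log2FC 3.24, adjusted p = 0.0294). For both genes HM replicate 1 was the highest HM sample and stayed below all NF samples. AT1G26380, a berberine-bridge family oxidase, had a log2FC of 6.20, the regulator MYB51 one of 2.70, the entry enzyme CYP79B2 one of 2.88, and PEN2 and PEN3, the myrosinase and the transporter of this pathway, 2.23 and 2.40. The list had 5 calls without HM replicate 2, 1 without HM replicate 3, 4 without NF replicate 2 and 7 without the block.

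The supply of aromatic precursors separated the stresses less. In shikimate and tryptophan synthesis, 4 of 12 genes were higher in NF (median log2FC 0.51), all of them in the tryptophan branch: ASA1 (1.44), ASB1 (2.3), TSA1 (1.06) and TSB1 (1.68). TSB1, a tryptophan synthase subunit, had 292, 172 and 175 CPM in HM and 489, 866 and 688 CPM in NF (adjusted p = 0.00778). Without HM replicate 3 no gene of the list was called, and without HM replicate 2 or NF replicate 2 there were 2 calls. Of 11 genes of phenylpropanoid entry, 7 were higher in NF (median 1.19), 2 without the block or HM replicate 3, and 3 without HM replicate 2 or NF replicate 2. CCR2, cinnamoyl-CoA reductase, had 27.9, 4.17 and 4.72 CPM in HM and 99.7, 189 and 220 CPM in NF (log2FC 4.12, SE 0.70, adjusted p = 0.00767). 4CL1 had 89.5, 42.7 and 59.2 CPM in HM and 201, 210 and 197 CPM in NF (log2FC 1.75, SE 0.27, adjusted p = 0.00629). In every replicate number 4CL1 was lower in HM than in NM (141, 55.1 and 99.9 CPM) and higher in NF than in NM. Against NM, NF passed the edgeR test (log2FC 1.14, adjusted p = 0.0218) and HM did not (-0.61, 0.354).

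**Figure D4:**
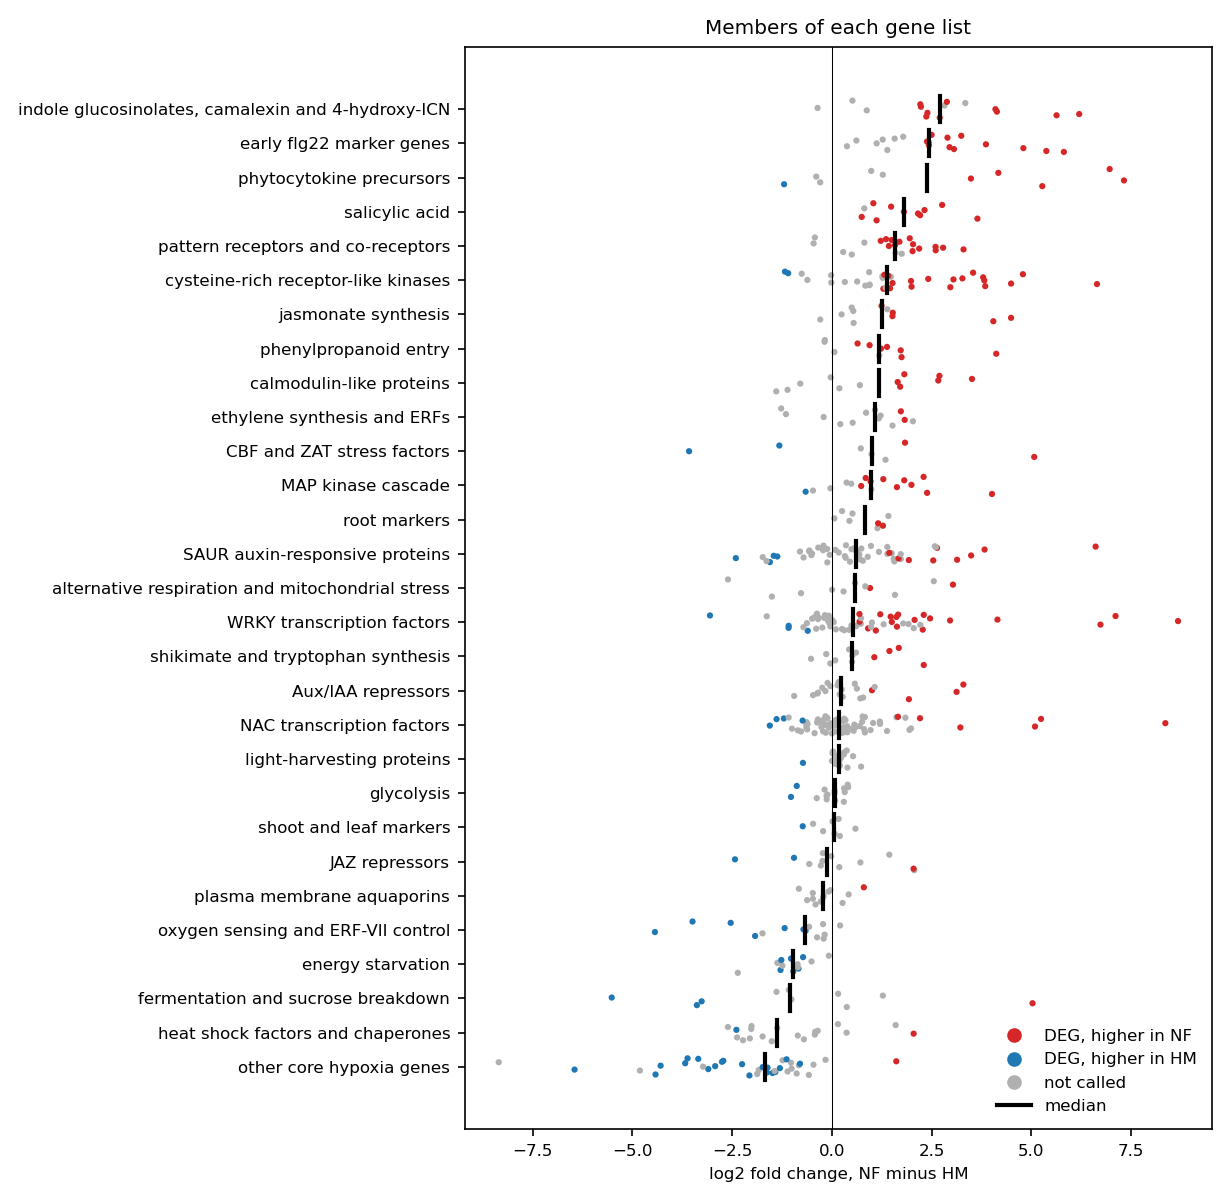
Log2 fold change (NF minus HM) of each tested member of 29 gene lists, sorted by the median (black bar), with DEGs higher in NF in red, DEGs higher in HM in blue and other genes in grey. Indole glucosinolate and early flg22 genes have the highest medians (2.70 and 2.43), and the other core hypoxia genes the lowest (-1.68).

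Among the hormones, salicylic acid was the most one-sided. Of 11 tested genes, 10 were higher in NF and none in HM (median log2FC 1.81), with 7 calls without the block and 6 without HM replicate 3 or NF replicate 2. The master regulators SARD1 and CBP60G were both included. SARD1 had 7.94, 0.351 and 1.03 CPM in HM and 44.9, 11.0 and 28.5 CPM in NF (log2FC 3.65, SE 0.54, adjusted p = 0.0056). The call of SARD1 was lost without the block (adjusted p = 0.128). CBP60G had 21.8, 6.68 and 21.3 CPM in HM and 65.4, 102 and 179 CPM in NF (log2FC 2.76, SE 0.38, adjusted p = 0.00448). EDS1, a lipase-like hub of immune signalling, had 28.5, 12.0 and 17.9 CPM in HM and 78.8, 74.5 and 97.2 CPM in NF (log2FC 2.16, SE 0.26, adjusted p = 0.00251), with its partners PAD4 at 1.81 and SAG101 at 1.49. The biosynthetic enzyme ICS1 had the smallest difference among those called (log2FC 0.75, adjusted p = 0.0399).

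For jasmonate and ethylene genes, a smaller share was called than for salicylic acid, and the calls depended more on single samples. In jasmonate synthesis, 5 of 11 genes were higher in NF (median log2FC 1.25), but none was without the block, HM replicate 2, HM replicate 3 or NF replicate 2, 1 was without NF replicate 3, and 7 were without HM replicate 1. LOX3, a lipoxygenase at the start of the pathway, had 58.6, 4.12 and 12.2 CPM in HM and 96.6, 311 and 433 CPM in NF (log2FC 4.05, SE 0.92, adjusted p = 0.0197). LOX4 had 264, 4.32 and 24.3 CPM in HM and 731, 842 and 1268 CPM in NF (log2FC 4.49, adjusted p = 0.0223). In ethylene synthesis and signalling, 2 of 13 genes were higher in NF, ACS6 (1.83) and ERF5 (1.73), neither of them without the block. No gene was higher in NF without HM replicate 2, HM replicate 3, NF replicate 2 or NF replicate 3, 6 were without HM replicate 1 and 5 without NF replicate 1, and 1 was without HF replicate 3 or any NM sample. In HM, 1 gene was called higher without HF replicate 1, HF replicate 3 or NF replicate 3. The pairs had medians of -0.58, 2.22 and 1.07. Relative to NM, the medians of this list were 1.99 in NF and 1.21 in HM.

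Families that decode the signal showed strong but selective separation. Of 59 WRKY genes, 19 (32.2%) were higher in NF and 4 (6.8%) in HM, against 9.8% and 5.5% of all tested genes. The share higher in HM was thus near that of all genes. The median log2FC was 0.53, and 10 and 2 genes were called without the block. The calls higher in NF were 10 without HM replicate 2, 8 without HM replicate 3, 7 without NF replicate 2 and 12 without NF replicate 3, those higher in HM were 2 without each of the first 3 of these samples, and without HM replicate 1 there were 27 and 4. WRKY41 had 0, 0.100 and 0 CPM in HM and 8.27, 8.82 and 30.4 CPM in NF (adjusted p = 0.00108). WRKY53 had 6.18, 2.16 and 4.18 CPM in HM and 41.3, 52.4 and 150 CPM in NF (log2FC 4.15, SE 0.47, adjusted p = 0.00204). WRKY49 was the strongest in the opposite direction, with 2.1, 55.2 and 55.8 CPM in HM and 0.535, 3.66 and 7.28 CPM in NF (log2FC -3.05, SE 0.47, adjusted p = 0.006). As NM had 3.02, 46.1 and 36.5 CPM, the gene differed by its low level in NF, and replicate 1 was low in each group. WRKY3, WRKY4 and WRKY21 were also higher in HM (log2FC -1.08, -0.60 and -1.08). WRKY49, WRKY3, WRKY4 and WRKY21 were named after their values were seen.

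Cysteine-rich receptor-like kinases (CRKs) had 18 of 34 members (52.9%) higher in NF and 2 (5.9%) in HM, with a median log2FC of 1.38. Over all tested genes, these shares were 9.8% and 5.5%, so the share higher in HM was near that of all genes. CRK31 had 1.42, 0.0502 and 0 CPM in HM and 34.6, 34.8 and 57.2 CPM in NF (log2FC 6.65, SE 0.78, adjusted p = 0.00237), and CRK20 had 1.67, 0.201 and 0.810 CPM in HM and 12.8, 28.4 and 41.7 CPM in NF (4.79, SE 0.71, adjusted p = 0.00558). CRK42 and CRK22 were the exceptions, at -1.17 and -1.09, neither of them called without the block. Of 12 calmodulin-like genes, 6 were higher in NF and none in HM. CML42 had 38.1, 4.57 and 8.73 CPM in HM and 104, 176 and 168 CPM in NF (log2FC 3.51, SE 0.67, adjusted p = 0.0109). Higher in NF were 5 CRKs and 3 calmodulin-like genes without HM replicate 2, 3 and none without HM replicate 3, 5 and 2 without NF replicate 2, and 11 and 2 without the block. Of the CRKs, 1 or none was called higher in HM when any sample other than HM replicate 1 was left out.

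**Figure D5:**
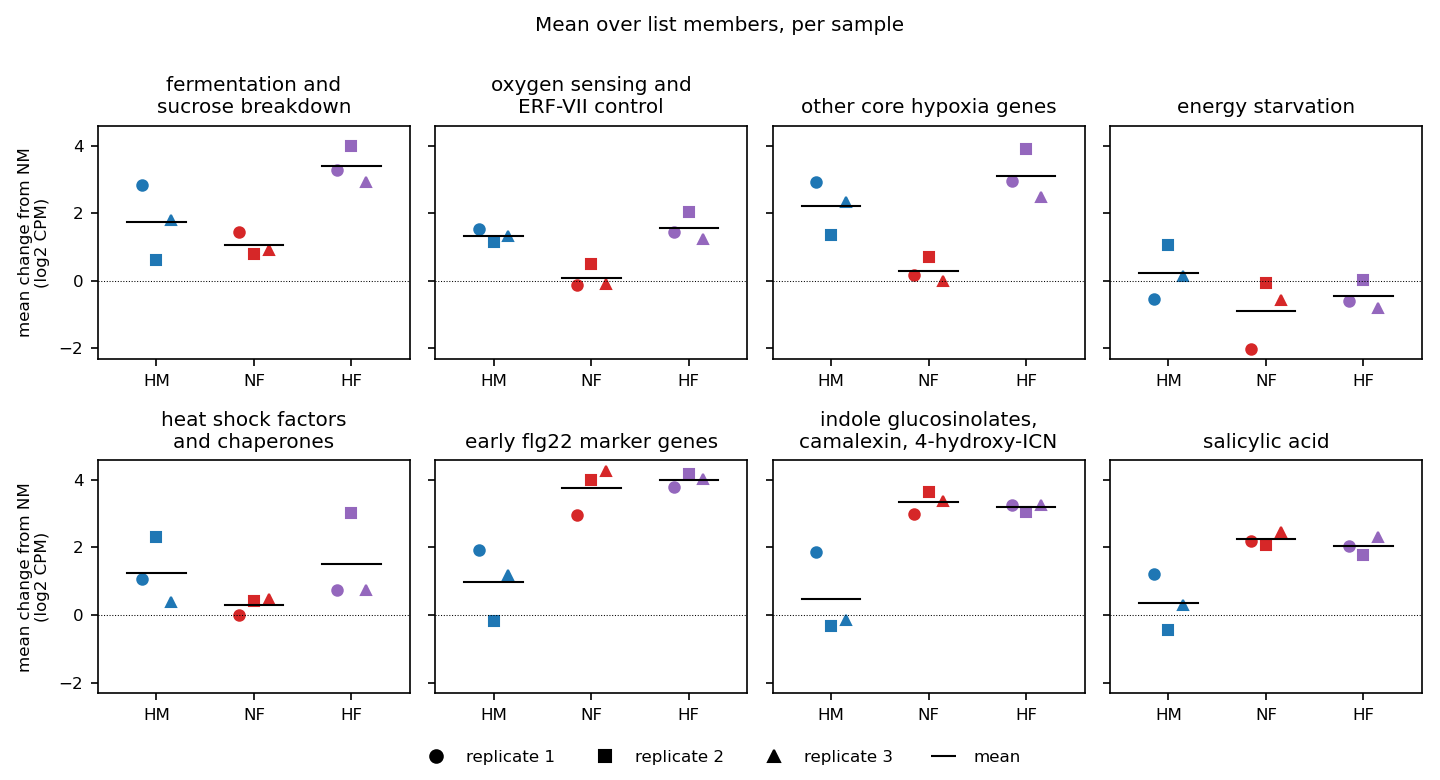
Mean change from NM (log2 CPM, over all tested members of a list) in each HM, NF and HF sample for 8 lists, with replicates as circles, squares and triangles and a line at the mean of 3 samples. The other core hypoxia genes stand at 2.93, 1.36 and 2.33 in HM and reach at most 0.71 in NF, and the early flg22 genes at 1.93, -0.16 and 1.20 in HM and 2.95, 4.01 and 4.27 in NF.

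Markers of roots moved with the comparison and stand beside the genes higher in NF. The median log2FC of 8 root markers was 0.83, with 0.80, 0.77 and 0.97 in the pairs, and 2 were called higher in NF, CASP1 of the endodermis (1.16) and EXPA7 of root hairs (1.28), neither of them without the block, HM replicate 1, HM replicate 3 or any single NF sample. There was 1 call without HM replicate 2, HF replicate 2 or NM replicate 3. The summed level of these markers was 2894, 1596 and 1612 CPM in HM, 3350, 2340 and 2397 CPM in NF and 3403, 1814 and 2383 CPM in NM, almost all of it from the β-glucosidase PYK10. NF thus exceeded HM at each replicate number, while the groups overlapped. The 8 shoot markers had a median of 0.04 and summed to between 24698 and 36788 CPM in HM and between 25083 and 38653 CPM in NF. FAMA, a regulator of guard cells, was the only one called, with a log2FC of -0.73. The part of root RNA in the differences between NF and HM was not tested.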

How the data were processed

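RNA of 12 samples (3 each of NM, HM, NF and HF) was sequenced by BGI with 100-base paired ends. Per the study's methods, the authors filtered reads with SOAPnuke and mapped them with HISAT. The submitters' processing notes name TAIR10. How reads were counted, and whether by strand, is not given in the sources used here. The authors deposited expected counts per gene, without normalization, for 23396 genes, all of which were matched to RefSeq (TAIR10.1). Values were rounded to whole numbers (2.3% were not whole). Samples were grouped by the treatment in their labels.

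Counts were scaled with TMM factors (0.828 to 1.233), filtered with filterByExpr (minimum count 10) and fitted with edgeR 4.0.16 (R 4.3.3, quasi-likelihood test) over all 12 samples, with group and replicate number as terms and Benjamini-Hochberg adjustment over 20074 genes. DEGs passed 0.05 and 1.5-fold, the study's cutoffs. SE is the log2FC divided by the square root of the F statistic. The fits were tested on simulated data. CPM values use the effective library size, and log2 CPM a prior count of 2. The block rests on the labels' replicate numbers and on their correlation (NF and HM with the same number, r of 0.48, 0.34 and 0.34, but at most -0.01 between HF replicate 3 and the other replicates 3; BCV, the biological coefficient of variation, 0.237 with and 0.362 without it). Replicates were no repeats of 1 library (chi-square over degrees of freedom 30.2 to 193.1).

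Named genes were (a) the 12 largest log2FC in each direction among DEGs without overlap, with 1 sign in all 3 pairs and a mean of at least 10 counts in the lower group, (b) up to 4 called members of each of 29 lists, by size, and (c) genes on which the study turns, 118 in all. Where no member of a list was called, the 2 with the highest mean CPM were taken. The other list members printed are examples chosen with their values known. The lists and the comparison itself were chosen with earlier results of these data known. Alternatives were DESeq2 1.42.0, other scalings and filters, no block, fewer groups and each sample left out. Python 3.11.15 with numpy 2.4.6, pandas 2.3.3, scipy 1.17.1 and matplotlib 3.10.9 served for the descriptions. The authors' group means in the same table were not used.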

Additional observations from a re-analysis of the deposited data

How the results depend on the processing

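The number of DEGs depended most on the samples in the fit and on the replicate block. Without the replicate block, 835 genes were higher in NF and 196 in HM, against 1967 and 1105 with it. With the NF and HM samples only and the block, 34 and 14 genes were called, and with DESeq2 on these samples without the block 1287 and 447. Of the genes higher in HM, 70 were lower in HF than in NM without the block, against 167 with it. Leaving out 1 sample gave between 432 and 2142 genes higher in NF and between 171 and 1318 higher in HM. The counts fell by more than 1.5 times without HM replicate 2 (776 and 405), HM replicate 3 (432 and 179), NF replicate 2 (549 and 171), NF replicate 3 (1310 higher in NF) and NF replicate 1 (697 higher in HM). Scaling by library size alone gave 1857 and 1422, and DESeq2 with the block on all samples 2583 and 1497. No DEG was called in the opposite direction under any alternative, all of which reused the same samples. Of the 113 named DEGs, 68 kept their call without the block, and 21 kept it in every alternative except at most the fit of NF and HM samples alone. Over all named genes and alternatives, 445 results lost their call, 7 gained one, 2214 kept their side of the threshold and none reversed. Depth was nearly equal and limited only genes with few counts, whereas 3 samples per group and a single dose and time limit the rest.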

Other observations

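Calls in other gene families went in both directions. Of 73 NAC transcription factors tested, 6 were higher in NF (8.2%) and 4 in HM (5.5%), with a median log2FC of 0.18. These shares were no larger than the 9.8% and 5.5% of all tested genes. There were 3 and 1 calls without HM replicate 2 and 2 and 0 without HM replicate 3. Those higher in HM were 2 without NF replicate 1 or NF replicate 3, and none without NF replicate 2 or the block. NAC042 had 1.85, 0.151 and 0.135 CPM in HM and 13.7, 21.1 and 28.4 CPM in NF (log2FC 5.09, SE 0.85, edgeR adjusted p = 0.00738), and NAC061, with no count in any HM sample, had 1.44, 1.03 and 3.54 CPM in NF. NAC061 passed the count filter only through samples of other groups. The JAZ repressors of jasmonate signalling went both ways, with JAZ1 higher in NF (257, 65.3 and 124 CPM in HM and 346, 653 and 608 CPM in NF) and JAZ7 higher in HM (7.43, 17.2 and 6.75 CPM in HM and 0.453, 4.64 and 1.38 CPM in NF). Of 12 JAZ genes, 1 was called higher in NF (8.3%) and 2 in HM (16.7%), and none when HM replicate 3 or NF replicate 2 was left out. Among the CBF and ZAT stress factors, ZAT11 (log2FC 5.07) and ZAT12 (1.83) were higher in NF and CBF2 (-3.58) and AZF3 (-1.32) in HM, none of them called without the replicate block, HM replicate 3 or NF replicate 2.

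Auxin-responsive genes differed without a common direction. Of 53 SAUR genes, 9 were higher in NF and 4 in HM, with a median log2FC of 0.61 that turned to -0.13 when genes needed 10 counts in every sample. The calls higher in NF were 1 without NF replicate 2, 3 without HM replicate 3, 4 without HM replicate 1 or the block and 5 without NF replicate 1, and those higher in HM were 2 without HM replicate 3, NF replicate 2, NF replicate 3 or the block. AT1G72430, a SAUR gene chosen after its values were seen, had 267, 177 and 249 CPM in HM and 47.6, 52.2 and 35.4 CPM in NF, with NM at 76.9, 69.3 and 50.2 CPM (log2FC -2.41, SE 0.27, edgeR adjusted p = 0.00209). Of 22 Aux/IAA repressors, 4 were higher in NF, among them IAA2 (72.4, 53.8 and 61.5 CPM in HM and 96.3, 165 and 120 CPM in NF), but none without HM replicate 2, HM replicate 3 or NF replicate 2 and 2 without NF replicate 3 or the block. Light-harvesting genes (1 of 19 called, higher in HM, 5.3%) and plasma membrane aquaporins (1 of 13 called, higher in NF, 7.7%) had medians of 0.18 and -0.22. Over all tested genes, the shares called were 5.5% higher in HM and 9.8% higher in NF. These calls of the light-harvesting and aquaporin genes were lost without the block and when HM replicate 1, HM replicate 3, NF replicate 1 or NF replicate 2 was left out. Without HM replicate 1, the aquaporins instead had 2 calls higher in HM.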
